A study of Homo sapiens with 6 samples.

Results

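The 9 genes described here encode the enzymes that write N6-methyladenosine (m6A) on RNA and the subunits that position them: METTL3, METTL14, METTL16, WTAP, VIRMA, RBM15, RBM15B, ZC3H13 and CBLL1. They were chosen by name, and all of their transcripts in the deposited tables were used, 65 of 163714 that could be assigned to one of 34905 genes. All 9 genes passed the filter on low counts that left 14497 genes for testing. Polyadenylated RNA had been sequenced from THP1, a human monocytic line from acute myeloid leukaemia, in 6 libraries. The title A5-res stands for cells with the genotype ALKBH5 rescue (replicates 1 and 2), shA5 for cells with the genotype ALKBH5 knock-down (replicates 1 and 2), and shCtrl for cells labelled wild-type (replicates 1 and 2). The design asks how RNA levels differ when ALKBH5, which removes m6A, is lowered and then restored. The sources used here do not give the hairpin sequences, the rescue construct or whether the cells were clones or pools. Since no label says that the replicates are separate cultures, a p-value reflects only library-to-library spread, part of which may be technical.

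The methyltransferase complex works on RNA in the nucleus. METTL3 holds the catalytic site and binds the methyl donor S-adenosylmethionine, while METTL14, its partner in a stable heterodimer, helps to bind the RNA. WTAP holds the heterodimer in nuclear speckles and joins it to VIRMA, to the RNA-binding proteins RBM15 and RBM15B, to the zinc finger protein ZC3H13 and to CBLL1, also called HAKAI, a RING-finger protein. METTL16 works apart from this complex, methylating U6 small nuclear RNA and hairpins of the MAT2A transcript. In acute myeloid leukaemia the METTL3 and METTL14 pair is known for keeping leukaemia cells proliferating and undifferentiated.

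Libraries held 14534386 to 24857373 estimated counts in all. ALKBH5, the targeted gene, went against the labels: it averaged 1023 ± 66.5 CPM (counts-per-million, the count scaled by library size) in the 3 libraries numbered 2 and 13.5 ± 1.11 CPM in the 3 numbered 1 (SD, n = 3 each), whichever group they were labelled as. Every group name below is therefore that of the library's label, and every direction between groups is that of the labels. The first principal component (74.6% of the variance) also separated the numbers, so values are given by group and by replicate number. Of 10 markers of a monocytic leukaemia line, 8 were above 1 TPM (transcripts-per-million, scaled by length and library) in every library, whereas MPO reached at most 2.58 TPM and MEIS1 at most 0.38 TPM. Their summed level was 2433 to 2482 TPM in the libraries numbered 2 and 1921 to 1956 TPM in those numbered 1. Among 4 T and NK cell markers only NKG7, at 30.3 to 43.2 TPM, exceeded 1 TPM, and CD3D was at 0 in all 6 libraries. HBB and HBA1 were at 0 throughout, and KRT8 was the one epithelial or fibroblast marker to reach 1 TPM, with at most 1.11 TPM.

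All writer genes were measured in every library, and their order by level per length was led by WTAP. Gene sums of TPM, which scale for transcript length, averaged 101 ± 16.9 TPM for WTAP and 57.9 ± 3.86 TPM for METTL3 over the 6 libraries (SD, n = 6). VIRMA stood at 30.8 ± 4.16 TPM and CBLL1 at 28.2 ± 2.38 TPM. Below them came ZC3H13 at 20.9 ± 4.03 TPM, RBM15B at 19.1 ± 1.78 TPM, RBM15 at 17.5 ± 3.06 TPM and METTL14 at 17.1 ± 1.65 TPM. METTL16 was lowest at 8.60 ± 1.60 TPM. Each of the steps from WTAP to METTL3, from METTL3 to VIRMA, from CBLL1 to ZC3H13 and from METTL14 to METTL16 was seen in 6 of 6 libraries. These steps are of gene sums over all transcript types. Coding transcripts held 57.4% of the CBLL1 TPM but 99.0% of the ZC3H13 TPM. The retained-intron transcript CBLL1-207 held 33.2% of the CBLL1 TPM on 35.8 to 51.7 counts. The step from CBLL1 to ZC3H13 therefore does not describe coding RNA. Nor does the step from METTL14 to METTL16 hold for the full coding transcripts. METTL14-201 stood at 2.07 to 3.24 TPM and METTL16-201 at 4.44 to 7.08 TPM. In CPM, METTL14 averaged 20.3 and METTL16 29.7 over the 6 libraries. VIRMA and CBLL1 overlapped within 1 SD, with VIRMA above CBLL1 in 5 of 6 libraries. Neighbours among ZC3H13, RBM15B, RBM15 and METTL14 overlapped likewise. ZC3H13 was above RBM15B in 5 of 6 libraries, RBM15B above RBM15 in 4 and RBM15 above METTL14 in 4. The heterodimer partners were unequal as RNA, with 3.40 ± 0.41 times as much METTL3 as METTL14 in gene TPM (SD, n = 6).

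**Figure D1:**
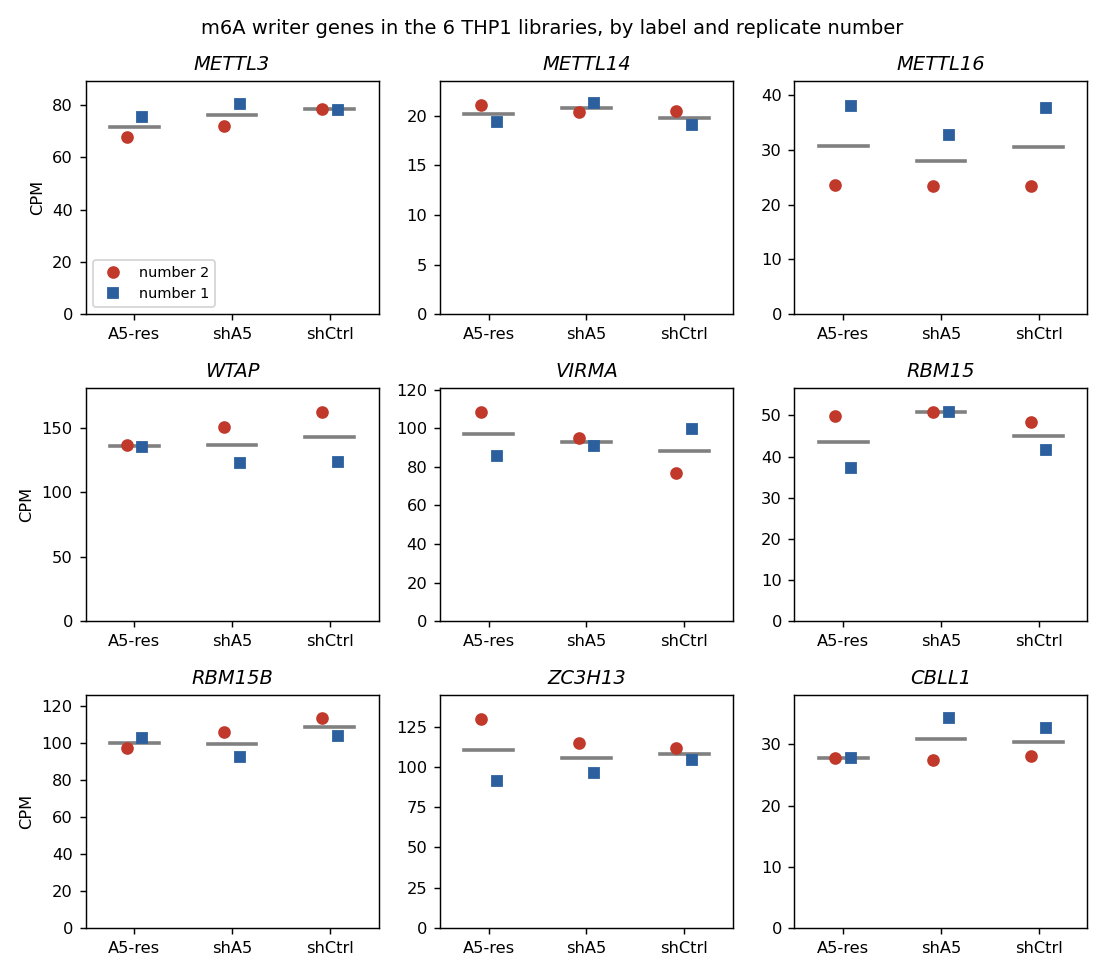
Counts-per-million (CPM, y axis) of each writer gene in the 6 libraries, grouped by label on the x axis. Circles are libraries numbered 2, squares libraries numbered 1, and grey lines the mean of 2 libraries; METTL16 sits at 23.3 to 23.5 CPM in all libraries numbered 2 and at 32.6 to 37.9 CPM in those numbered 1.

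The catalytic core was nearly level across the labels. METTL3 was measured at 67.8 and 75.5 CPM in the libraries labelled A5-res 2 and 1, at 71.8 and 80.3 CPM in shA5 2 and 1, and at 78.3 and 78.0 CPM in shCtrl 2 and 1. Both A5-res libraries lay below both shCtrl libraries, and the shA5 values overlapped those of both. METTL14 stood at 21.0 and 19.3 CPM in A5-res 2 and 1, at 20.4 and 21.3 CPM in shA5 2 and 1, and at 20.5 and 19.1 CPM in shCtrl 2 and 1, so that its groups overlapped throughout. These levels rest on 1079 to 1738 estimated counts for METTL3 and 264 to 445 for METTL14. METTL14 had the smallest spread of the 9 genes in CPM, with a coefficient of variation of 4.35% over the 6 libraries.

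In the scaffold subunits WTAP and VIRMA, the replicates of a group differed more than the group means did. Exceptions were A5-res for WTAP and shA5 for VIRMA. WTAP was at 136 and 135 CPM in A5-res 2 and 1, at 150 and 122 CPM in shA5 2 and 1, and at 163 and 123 CPM in shCtrl 2 and 1. The A5-res pair was close together and lay between the extremes of the other groups. VIRMA, the largest subunit, was at 108 and 85.8 CPM in A5-res 2 and 1, at 95.0 and 90.9 CPM in shA5 2 and 1, and at 76.9 and 99.3 CPM in shCtrl 2 and 1. Its direction between A5-res and shCtrl turned with the number, with a log2 ratio of 0.49 within number 2 and -0.21 within number 1.

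Among the RNA-binding adaptors, which recruit the complex to its sites, RBM15 was the gene whose groups separated around shA5. RBM15 was measured at 49.9 and 37.1 CPM in A5-res 2 and 1, at 50.9 and 50.8 CPM in shA5 2 and 1, and at 48.4 and 41.7 CPM in shCtrl 2 and 1. Both shA5 libraries were therefore above the 4 others. Within number 2 the log2 ratio of shA5 to shCtrl was 0.07 and within number 1 it was 0.29. Its paralogue RBM15B was at 97.2 and 103 CPM in A5-res 2 and 1, at 106 and 92.7 CPM in shA5 2 and 1, and at 114 and 104 CPM in shCtrl 2 and 1. Both A5-res libraries were below both shCtrl libraries, by a log2 ratio of -0.23 within number 2 and -0.01 within number 1.

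ZC3H13, which anchors the regulatory subunits in the nucleus, and CBLL1 completed the complex. ZC3H13 was at 130 and 91.2 CPM in A5-res 2 and 1, at 115 and 96.3 CPM in shA5 2 and 1, and at 112 and 104 CPM in shCtrl 2 and 1. CBLL1 was at 27.9 and 27.7 CPM in A5-res 2 and 1, at 27.5 and 34.3 CPM in shA5 2 and 1, and at 28.1 and 32.8 CPM in shCtrl 2 and 1. The A5-res values of CBLL1 lay just under both shCtrl values, while those of ZC3H13 enclosed every other library. METTL16, the separate enzyme, stood at 23.5 and 37.9 CPM in A5-res 2 and 1, at 23.3 and 32.6 CPM in shA5 2 and 1, and at 23.5 and 37.5 CPM in shCtrl 2 and 1. In this gene the 3 libraries of each number formed a band of their own and the groups overlapped fully.

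No writer gene passed the test between libraries labelled shA5 and shCtrl, so neither the catalytic pair nor an adaptor was called. By the quasi-likelihood test of edgeR, with no term for replicate number, 0 of 9 genes were below an adjusted p of 0.05 (adjusted p = 1 for each) and 0 of 9 below an unadjusted p of 0.05. Over all 14497 genes the share called was 0%, with 38 genes at an unadjusted p of 0.05, and DESeq2 and limma-voom also called 0 genes. The members' log2 fold changes ran from -0.13 for RBM15B (SE 0.17) to 0.17 for RBM15 (SE 0.22), with a median of -0.03 against -0.03 for all genes (n = 2 per group). Groups did not overlap for 1 of 9 members, RBM15 with shA5 higher, and for 0 of 9 with shA5 lower, where 9.3% of all genes tested were higher and 8.17% lower without overlap. In bulk RNA, fewer cells of a type and less RNA per cell cannot be told apart. With replicate number as a block the test called 0.0069% of all genes and 0 of 9 members (lowest adjusted p = 0.978), and the 95% intervals of the members together covered log2 -0.40 to 0.48, or 0.759 to 1.39 times the shCtrl level.

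Between libraries labelled A5-res and shA5 no writer gene passed the same test. It called 0 of 9 members (adjusted p = 1.00 for each, 0 at an unadjusted p of 0.05) and 0% of all genes, with 43 genes at an unadjusted p of 0.05 and 0 called by DESeq2 or limma-voom. Log2 fold changes lay between -0.22 for RBM15 (SE 0.22) and 0.14 for METTL16 (SE 0.36), with a median of -0.01 against 0.01 for all genes. RBM15, lower in A5-res, was again the 1 of 9 members without overlap, where 5.39% of all genes were higher and 6.53% lower without overlap. This is the pattern of RBM15 between shA5 and shCtrl turned round, but both comparisons use the same shA5 libraries. The blocked fit called 0 of 9 members and 0% of all genes, with intervals together covering log2 -0.53 to 0.41. When A5-res replicate 2 was left out of that fit, RBM15 passed at -0.41 (SE 0.14, adjusted p = 0.0477), a value that sets the single library A5-res 1 against shA5 and that came with 1005 genes called.

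Between A5-res and shCtrl the members were likewise not called. The count was 0 of 9 (adjusted p = 1.00 for each, 0 at an unadjusted p of 0.05), against 0% of all genes, 46 genes at an unadjusted p of 0.05 and 0 called by DESeq2 or limma-voom. Log2 fold changes ran from -0.13 for CBLL1 (SE 0.21) to 0.14 for VIRMA (SE 0.21), with a median of -0.05 against -0.01 for all genes. METTL3, RBM15B and CBLL1 were the 3 of 9 members without overlap, all lower in A5-res, where 3.98% of all genes were higher and 6.15% lower without overlap. Their log2 fold changes were -0.13 for METTL3 (SE 0.17), -0.12 for RBM15B (SE 0.17) and -0.13 for CBLL1 (SE 0.21). The blocked fit called 0 of 9 members and 0.0069% of all genes, with intervals together covering log2 -0.43 to 0.47. Without A5-res replicate 1 it called VIRMA at 0.38 (SE 0.12, adjusted p = 0.0375) along with 764 genes in all, whereas without A5-res replicate 2 the value was -0.11.

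**Figure D2:**
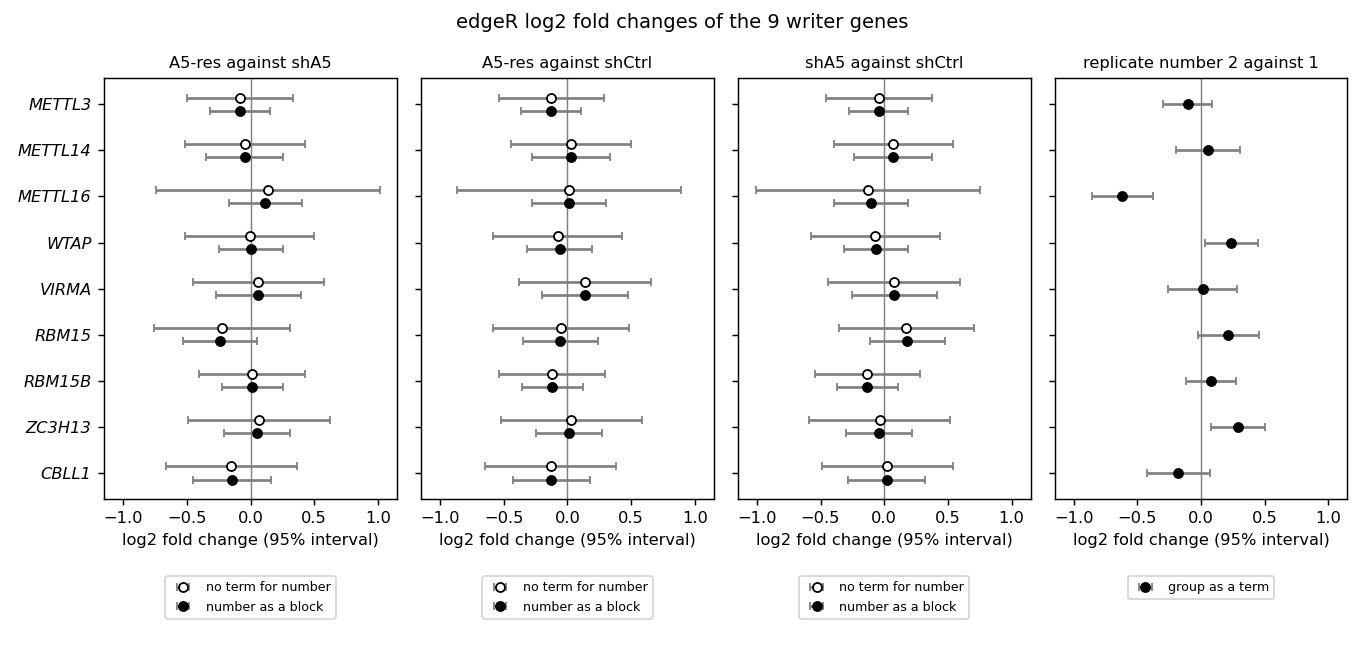
Log2 fold changes of the 9 writer genes (x axis) in the 3 comparisons between labels and between replicate numbers, from edgeR with all 6 libraries. Points are estimates and bars 95% intervals, open without and filled with replicate number as a block; every interval between labels crosses 0, and METTL16 lies at -0.62 in number 2 against 1.

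The members that differed did so between the replicate numbers of the titles. No label says what the numbers stand for, so this comparison describes libraries and not a treatment. In a fit with group and number, 2 of 9 members were called, METTL16 lower and ZC3H13 higher in the libraries numbered 2, where 45.4% of all genes were called. That background is 22.8% higher and 22.6% lower, so 2 of 9 is no more than the background, and ALKBH5 differed between the same libraries by a log2 fold change of 6.24 (SE 0.11). The parts of ALKBH5 and of anything else that differs between the numbers cannot be told apart. The median of the 9 members was 0.05 against 0.01 for all genes.

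METTL16 averaged 23.4 ± 0.10 CPM in number 2 and 36.0 ± 2.96 CPM in number 1 (SD, n = 3 each). The log2 fold change was -0.62 (SE 0.11, 95% interval -0.86 to -0.38, edgeR adjusted p = 0.0014), or 0.652 times the number 1 level. It was lower in number 2 within all 3 groups, by log2 ratios of -0.69 in A5-res, -0.48 in shA5 and -0.68 in shCtrl. The call held without each library in turn, with values from -0.69 to -0.57. It was lost on the TPM scale, where METTL16 averaged 7.26 ± 0.80 TPM in number 2 and 9.94 ± 0.60 TPM in number 1, with limma adjusted p = 0.086 for log2(TPM + 0.1).

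ZC3H13 averaged 119 ± 9.60 CPM in number 2 and 97.3 ± 6.65 CPM in number 1 (SD, n = 3 each), a log2 fold change of 0.29 (SE 0.09, 95% interval 0.08 to 0.50, edgeR adjusted p = 0.0311). The libraries of the numbers did not overlap, but the size differed between groups, from 0.51 in A5-res to 0.26 in shA5 and 0.10 in shCtrl. The call was lost without A5-res replicate 1 (0.19, adjusted p = 0.0782) or 2 (0.19, adjusted p = 0.069) and without shA5 replicate 1 (0.31, adjusted p = 0.189) or 2 (0.32, adjusted p = 0.156). On the TPM scale the value was 0.44 against a median of 0.12 for all genes (limma adjusted p = 0.0721).

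WTAP was the third member whose numbers did not overlap in CPM, making 3 of 9 (2 higher, 1 lower in number 2), where 57.7% of all genes did not overlap (28.6% higher, 29.1% lower). It averaged 150 ± 13.1 CPM in number 2 and 127 ± 6.92 CPM in number 1 (SD, n = 3 each), with a log2 fold change of 0.24 (SE 0.09, 95% interval 0.03 to 0.44) that missed the threshold (edgeR adjusted p = 0.0614). Per length the difference was wider, at 117 ± 3.74 TPM in number 2 and 86.2 ± 0.36 TPM in number 1 (SD, n = 3 each). On that scale limma gave 0.44 (SE 0.06, adjusted p = 0.00594) against the same median of 0.12 for all genes, and an effective-length offset in edgeR gave 0.33 (adjusted p = 0.0222). Without A5-res replicate 1 or 2 the count-based value was 0.36 for each (adjusted p = 0.000326 and 0.000226).

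The other 6 members were not called between the numbers. RBM15 had a log2 fold change of 0.21 (SE 0.11, adjusted p = 0.132), CBLL1 of -0.18 (SE 0.11, adjusted p = 0.215) and METTL3 of -0.10 (SE 0.09, adjusted p = 0.347). RBM15B stood at 0.08 (SE 0.09), METTL14 at 0.05 (SE 0.11) and VIRMA at 0.01 (SE 0.12, 95% interval -0.26 to 0.29). VIRMA differed in direction between groups, with log2 ratios of number 2 to 1 of 0.34 in A5-res, 0.06 in shA5 and -0.37 in shCtrl.

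Transcripts within the genes gave further detail. Of the 65 transcripts, 60 had an estimated count above 0 in at least 1 library and 38 had a mean of at least 1 TPM. kallisto divides reads shared by transcripts of a gene by an estimate, and the error of that division is not in the values. For transcripts, edgeR called 0 of 41 tested members in every comparison between groups, against 0% of 58909 transcripts. Between the numbers it called 0 of 41, against 0.0017% of all transcripts, while 6 of 41 and 12218 of 58909 had an unadjusted p of 0.05 or less.

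In the core, the full coding transcript METTL3-201, with 580 codons, held 41.2% ± 3.52 of the METTL3 TPM (SD, n = 6). Transcripts annotated as targets of nonsense-mediated decay held 31.1% ± 3.71 and retained-intron transcripts 16.7% ± 1.37. METTL3-210 and METTL3-206, the leading decay transcripts, averaged 8.32 ± 1.51 TPM and 5.61 ± 2.09 TPM. The last coding base that METTL3-210 shares with METTL3-201 is at chromosome 14, position 21503173 (minus strand), that of METTL3-206 is at position 21503506, and both end at early stop codons. The leading transcript of METTL14 by TPM was METTL14-203, a fragment of 927 bases at 7.49 ± 1.28 TPM and 52.7 to 132 counts. Next came the decay transcript METTL14-205, of 522 bases, at 5.85 ± 1.39 TPM. It held 34.0% ± 6.21 of the METTL14 TPM on only 14.7 to 30.5 counts. The full coding METTL14-201, 6669 bases long, had 195 to 285 counts and 2.68 ± 0.39 TPM. The ratio of METTL3-201 to METTL14-201 was 8.95 ± 0.68 in TPM, above the ratio of the gene sums. TPM per transcript depends on such short fragments, and ranks among METTL14 transcripts differ between counts and TPM.

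METTL16-201, the full coding form with 562 codons, held 63.7% ± 8.58 of the METTL16 TPM and was not called between the numbers, unlike the gene. It stood at 4.85, 4.44 and 4.61 TPM in A5-res, shA5 and shCtrl number 2, against 7.08, 5.30 and 6.36 TPM in the same groups of number 1. No library of number 2 reached the lowest of number 1. The share of all transcripts without overlap was not computed, and among genes in CPM it was 57.7%. Its log2 fold change in counts was -0.50 (SE 0.14, edgeR adjusted p = 0.162 over all transcripts, 0.0196 unadjusted). The decay transcript METTL16-208 stood at 4.14 to 46.9 counts, too few to describe by library.

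Of the adaptors, RBM15B has a single transcript, and RBM15 only coding ones, led by RBM15-203 with 54.2% ± 5.78 of its TPM. ZC3H13 was split between ZC3H13-201 (9.57 ± 2.14 TPM) and ZC3H13-202 (8.73 ± 1.50 TPM), which were higher in number 2 by log2 values of 0.38 (SE 0.14) and 0.29 (SE 0.12) but not called. CBLL1 had 34.1% ± 4.79 of its TPM in retained-intron transcripts, nearly all in CBLL1-207, a transcript of 560 bases with 35.8 to 51.7 counts. VIRMA varied most between libraries: its retained-intron share was 9.73%, 1.75% and 17.1% in A5-res, shA5 and shCtrl number 2, against 38.7%, 33.1% and 21.0% in the same groups of number 1. The share was lower in number 2 in all 3 groups, yet VIRMA-206, which holds most of it, rests on 0 to 72.2 counts (unadjusted p = 0.0871). The decay share of VIRMA also ran from 0% to 31.2%, most of it in VIRMA-203, a transcript of 497 bases with 0 to 36.1 counts. In shA5 number 2, VIRMA-206 was at 0 TPM and VIRMA-203 at 9.61 TPM. In shA5 number 1 they were at 9.11 and 0 TPM. The full coding VIRMA-201 stood at 14.1 ± 3.09 TPM in number 2 and 13.0 ± 1.42 TPM in number 1 (SD, n = 3 each).

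**Figure D3:**
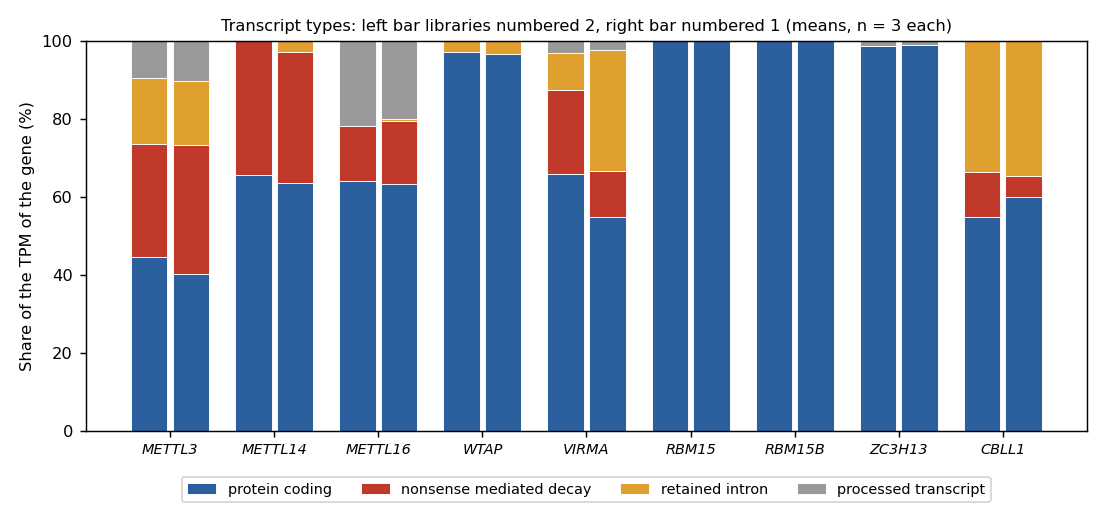
Share of each writer gene's summed TPM (y axis, percent) by annotated transcript type, as means of the 3 libraries numbered 2 (left bar) and the 3 numbered 1 (right bar). METTL3 and CBLL1 hold 40.2% to 60.1% of their TPM in coding transcripts, and the retained-intron share of VIRMA averages 9.53% in number 2 and 30.9% in number 1.

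The coding transcripts of WTAP have different coding ends, and none of them was called between the numbers. WTAP-206 and WTAP-202 encode the long protein of 396 codons. WTAP-201, with 151 codons, reads on past the exon end that the long forms splice at chromosome 6, position 159748369 (plus strand), and stops 4 bases later. WTAP-205 and WTAP-207, with 170 codons, splice from that base to a terminal exon at 159748590, and the long forms to an exon at 159753460. The forms share 452 coding bases. The sequences around the branch are shown since this base separates the short from the long forms described next; lower case marks the last 30 shared coding bases and capitals the bases that follow, up to and including the stop codon in the short forms (GENCODE release 29 transcripts, GRCh38, read 5′ to 3′).
WTAP-201: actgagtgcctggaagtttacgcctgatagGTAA
WTAP-205: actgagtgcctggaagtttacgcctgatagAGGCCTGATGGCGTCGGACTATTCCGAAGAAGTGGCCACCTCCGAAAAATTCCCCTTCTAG
WTAP-206: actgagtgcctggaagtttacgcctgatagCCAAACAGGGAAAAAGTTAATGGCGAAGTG

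WTAP-201 was at 48.5, 48.7 and 49.1 TPM in A5-res, shA5 and shCtrl number 2, against 28.5, 28.3 and 28.4 TPM in the same groups of number 1. Within each number the 3 groups were within 1 TPM of each other. WTAP-205 was at 17.5, 16.8 and 14.9 TPM in number 2, against 7.88, 8.47 and 9.91 TPM in number 1, in the same order of groups. The rare WTAP-207 averaged 2.17 ± 0.25 TPM in number 2 and 0.41 ± 0.20 TPM in number 1. WTAP-206, the leading long form, was at 36.3, 42.3 and 46.3 TPM in number 2, against 43.3, 41.8 and 41.7 TPM in number 1. Its libraries overlapped. The other long form, WTAP-202, was at 4.33, 5.25 and 4.18 TPM in number 2, against 3.91, 3.67 and 3.32 TPM in number 1. Its libraries did not overlap and were higher in number 2, as in the short forms, by a ratio of means of 1.26. How many of all transcripts separate in this way was not computed.

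Summed, the short forms averaged 67.3 ± 1.35 TPM in number 2 and 37.6 ± 0.89 TPM in number 1 (SD, n = 3 each), a ratio of 1.79. The long forms averaged 46.2 ± 5.05 TPM and 45.9 ± 1.18 TPM in the same order, a ratio of 1.01. The short share of the coding TPM was 62.8%, 58.8% and 56.6% in A5-res, shA5 and shCtrl number 2, against 43.8%, 45.1% and 46.1% in the same groups of number 1. It was thus over 50% in all libraries numbered 2 and under 50% in all numbered 1. This grouping into short and long forms was chosen after the values were seen and is given without a test. Transcript by transcript, edgeR gave log2 fold changes of 0.70 for WTAP-201 (SE 0.10, unadjusted p = 0.00183), 0.83 for WTAP-205 (SE 0.15, unadjusted p = 0.00462) and -0.11 for WTAP-206 (SE 0.15, unadjusted p = 0.502). None passed after adjustment over all transcripts, with adjusted p = 0.0793, 0.101 and 0.712 in that order. WTAP-207 (log2 2.39, SE 0.45) and WTAP-202 (log2 0.25, SE 0.18) did not pass either, with adjusted p = 0.106 and 0.479.

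**Figure D4:**
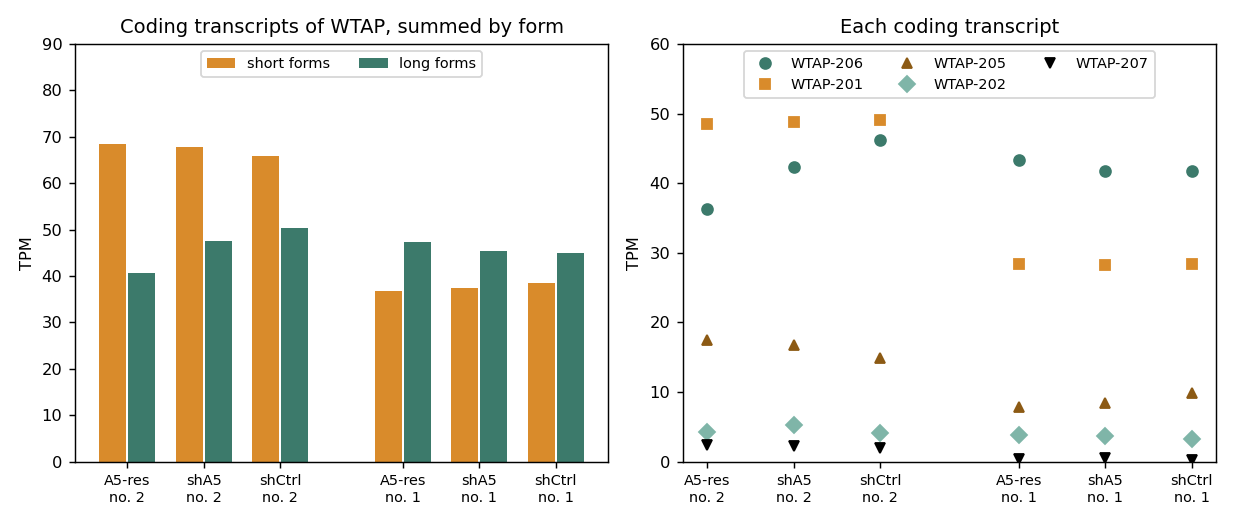
TPM (y axis) of the coding transcripts of WTAP in each library, with libraries numbered 2 on the left of each panel and those numbered 1 on the right. The left panel sums short forms (WTAP-201, WTAP-205 and WTAP-207) and long forms (WTAP-202 and WTAP-206), and the right panel shows each transcript; WTAP-201 lies at 48.5 to 49.1 TPM in number 2 and at 28.3 to 28.5 TPM in number 1.

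Neighbouring genes bear on these counts, as no source used here says whether strand was used in the quantification. SOD2, which encodes a mitochondrial superoxide dismutase, overlaps WTAP on the opposite strand and averaged 715 ± 4.20 CPM in number 2 and 485 ± 18.2 CPM in number 1. SOD2-204, which shares 205 bases with exons of WTAP-202 and WTAP-205, had at most 8.88 counts in a library. SOD2-208, which shares 93 bases with WTAP-202, had at most 10.4 counts. SOD2-213, which shares 68 bases with exons of WTAP-202 and WTAP-205, had at most 43.2 counts in a library. SOD2-215, which overlaps the end of all short forms by up to 139 bases, had at most 6.15 counts. Reads of these overlaps cannot be told apart without strand, and the part of SOD2 in the WTAP values was not tested. DCAF1, which overlaps 20.0% of the exonic bases of RBM15B on the opposite strand, averaged 71.9 ± 2.60 CPM in number 2 and 97.6 ± 2.93 CPM in number 1. TOX4 overlaps 6.58% of the exonic bases of METTL3, and antisense RNAs overlap 3.75% of those of RBM15 and 6.08% of those of CBLL1.

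Positions of the genes follow GENCODE release 29 on GRCh38. METTL3 (ENSG00000165819.11) lies on chromosome 14, 21498133 to 21511375, minus strand, and METTL14 (ENSG00000145388.14) on chromosome 4, 118685368 to 118715433, plus strand. WTAP (ENSG00000146457.15) lies on chromosome 6, 159725585 to 159756319, plus strand, and VIRMA (ENSG00000164944.11) on chromosome 8, 94487693 to 94553529, minus strand. RBM15 (ENSG00000162775.14) lies on chromosome 1, 110338506 to 110346681, plus strand, and RBM15B (ENSG00000259956.1) on chromosome 3, 51391268 to 51397908, plus strand. ZC3H13 (ENSG00000123200.16) lies on chromosome 13, 45954465 to 46052759, minus strand, and CBLL1 (ENSG00000105879.11) on chromosome 7, 107743697 to 107761667, plus strand. METTL16 (ENSG00000127804.12) lies on chromosome 17, 2405562 to 2511891, minus strand.

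Other genes of the pathway were not called between groups: 0 of 25 tested genes of the lists below passed in any of the 3 comparisons, with or without the block. Between the numbers, both demethylases were higher in number 2, as FTO averaged 45.1 ± 2.22 CPM in number 2 and 32.2 ± 2.38 CPM in number 1 (log2 0.48, SE 0.10, adjusted p = 0.00364) beside the ALKBH5 difference given above. Of 5 genes that encode other adenosine methyltransferases or the partner protein TRMT112, 1 rose and 3 fell. METTL4, which methylates U2 small nuclear RNA, rose to 13.3 ± 2.10 CPM in number 2, against 5.49 ± 0.75 CPM in number 1 (log2 1.27, SE 0.13, adjusted p = 9.767e-05). METTL5, the enzyme of 18S ribosomal RNA, and its partner TRMT112 fell by 0.34 and 0.58 on the log2 scale (adjusted p = 0.0277 and 0.000933), and the cap methyltransferase PCIF1 fell by 0.42 (adjusted p = 0.00515).

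The supply of S-adenosylmethionine showed no call, with 0 of 3 genes. MAT2A, the synthetase whose transcript METTL16 methylates, averaged 366 ± 16.3 CPM in number 2 and 384 ± 24.6 CPM in number 1 (log2 -0.07, SE 0.08, adjusted p = 0.53). Its retained-intron transcripts, a known readout of METTL16, held 19.0% ± 1.37 of its TPM in number 2 and 19.5% ± 4.70 in number 1 (SD, n = 3 each). In number 1 the share ran from 15.9% to 24.8%, too wide to show a small difference. A link between these shares and the METTL16 level was not tested. MAT2B stood at log2 -0.04 (SE 0.08) and AHCY, which clears the product of methylation, at 0.16 (SE 0.08). Of 3 recruiters and relatives 0 were called: CEBPZ at -0.07 (SE 0.15), SETD2 at 0.13 (SE 0.09) and SPEN at 0.06 (SE 0.08). Of 13 reader genes 12 were tested, and 2 rose and 1 fell. YTHDF2, which leads methylated RNA to decay, rose by log2 0.39 (SE 0.08, adjusted p = 0.00341) and FMR1 by 0.43 (SE 0.11, adjusted p = 0.00883), whereas PRRC2A fell by 0.41 (adjusted p = 0.0422). YTHDC2 stood at 0.35 (SE 0.14, adjusted p = 0.0616). All these counts stand against the background of 45.4% of genes called between the numbers.

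The genes whose pattern was most like the core pair were sought by the Euclidean distance of centred log2 CPM over the 6 libraries, among the 10594 coding genes that averaged 5 CPM or more. WDR20, URB1 and RAI1 were nearest to METTL3, at distances of 0.03 for each. SRSF6, NPTN and CREBZF were nearest to METTL14, at 0.06 to 0.07. Such a distance is small between any genes that vary little, so it need not mean a shared pattern. METTL3 and METTL14 had coefficients of variation of 6.26% and 4.35% in CPM. METTL3 and METTL14 were 0.27 apart, so METTL14 ranked 1802 among the neighbours of METTL3 and METTL3 ranked 1462 among those of METTL14, where the median gene lay at 0.52 and 0.51. METTL16 was the member farthest from both, at 0.69 from METTL3 and 0.87 from METTL14. The ratio of METTL3 to METTL16 in gene TPM was 8.05 ± 1.01 in number 2 and 5.81 ± 0.27 in number 1, and that of WTAP to METTL3 was 2.01 ± 0.04 in number 2 and 1.50 ± 0.17 in number 1 (SD, n = 3 each).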

How the data were processed

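Polyadenylated RNA of 6 THP1 libraries was measured. Per the file headers and the submitters' processing notes, the authors made kallisto 0.43.1 abundance tables, after CASAVA and with the build hg38, whose expected counts (estimated counts, not whole) are unscaled reads divided among 179973 transcripts. The TPM values deposited by the authors are scaled by effective length and library (transcripts-per-million). Which kallisto options were set, and whether strand was used, the sources used here do not say. Per the labels' protocols, poly(A) RNA was randomly primed and amplified by PCR, without mention of molecular identifiers, so counts cover less than the full error.

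Transcripts were matched to GENCODE release 29 (GRCh38) without ID versions. The 16259 unmatched ones, with 3.13% to 3.32% of the counts, were left out. Counts were summed per gene, rounded and tested by edgeR 4.0.16 (R 4.3.3) with glmQLFit and glmQLFTest after TMM scaling and filterByExpr, on all 6 libraries, with Benjamini-Hochberg adjustment over 14497 genes and a threshold of 0.05. Standard errors were derived from the log2 fold change and F, and 95% intervals from the t distribution. CPM values use TMM-adjusted library sizes. Deposited TPM values were summed per gene to describe levels per length, and gene TPM was tested with limma as an alternative. Transcript shares were not tested. Transcripts were tested the same way as genes.

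Replicate numbers come from the titles. Deviations from the group means correlated at 0.68 to 0.81 between same-numbered libraries, in 3 separate values. The main fits between groups nevertheless hold no term for the number, since no label says that it marks a shared batch. Their standard errors and p-values therefore ignore this pairing. For genes, the fit with the number as a block is given beside each of them. The biological coefficient of variation was 27.7% without and 10.6% with the block. Alternatives tried were DESeq2 1.42.0, RLE size factors, limma 3.58.1 (voom, or log2 of TPM plus 0.1 or 1), other filters, an effective-length offset, coding transcripts only, and each library left out. The procedure was tested on simulated data.

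The members, gene lists and the rule for named genes (all members, transcripts of at least 1 TPM, up to 4 genes a list by p between the numbers, 3 nearest genes for METTL3 and METTL14) were chosen with earlier results of these data known.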

Additional observations from a re-analysis of the deposited data

How the results depend on the processing

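Of 198 recomputed member values for each comparison between groups, 198 kept their side of the threshold for shA5 against shCtrl and 197 for each of the others, and 30 to 33 uncalled values per comparison changed sign. Between the numbers 129 of 144 did, 8 lost and 7 gained a call, all of METTL16, ZC3H13 and WTAP as given above or below, 12 uncalled values changed sign and no called value did.

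With the replicate block, 1 gene was called for shA5 against shCtrl, 0 for A5-res against shA5 and 1 for A5-res against shCtrl, none of them a member, and the block changed no other call of a member with all 6 libraries. Blocked and without 1 library in turn, the counts ran from 1 to 420, from 0 to 1005 and from 1 to 764 in the same order. They were largest without A5-res replicate 1 (420, 54 and 764) or 2 (393, 1005 and 101). Without shA5 replicate 1 they were 25, 17 and 35, without shA5 replicate 2 they were 17, 38 and 36, without shCtrl replicate 1 they were 4, 0 and 2, and without shCtrl replicate 2 they were 1, 0 and 1. At most 1 member was called, as given above, and the cause was not tested. Without the block, leaving out each library in turn gave 0 genes in every comparison between groups.

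Between the numbers, leaving out each library in turn gave 3915 to 6811 genes and 1 or 2 members, against 6585 and 2 with all. Without shA5 replicate 1 there were 3915 and without shA5 replicate 2 there were 4030, each with 1 member, METTL16. limma on log2(TPM + 0.1) and log2(TPM + 1) called 1 member each (WTAP) among 4651 and 4683 genes, of which 60.3% and 60.6% were higher, against 50.2% on counts. Under log2(TPM + 1), METTL16 stood at -0.41 (adjusted p = 0.0947), ZC3H13 at 0.42 (0.0749) and WTAP at 0.43 (0.00544). WTAP was also called with no filter (0.27, adjusted p = 0.0319) and with no term for group (0.24, adjusted p = 0.0277). The 1 transcript called between the numbers was lost without each library in turn, leaving 0.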
